A study of Mus musculus with 36 samples.

Results

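Livers of tumour-bearing (TB) mice taken at ZT 12 were compared with livers of TB mice taken at ZT 0. Zeitgeber time (ZT) counts hours from lights on, so ZT 12 is the change from light to dark and ZT 0 the change from dark to light. The arrays titled for TB liver at these times gave 3 and 3, or 6 of the 36 arrays of the series. The series as a whole measured liver RNA in TB and WT mice at 6 times of day, every 4 h, with 3 arrays in each of the 12 groups, and asked how a lung adenocarcinoma bears on the daily cycle of gene expression in the distant liver. TB mice were C57BL/6 animals that carried conditional alleles of a lung adenocarcinoma model and had that tumour, per the labels, and WT mice were C57BL/6 animals without it. Mice of both genotypes lived in equal 12 h spans of light and dark. The tumour lies in the lung, and what was measured was liver. How the recombinase was delivered, the tumour load, and the age and sex of the mice are not stated in the labels. The labels do not say for each array that it stands for a mouse of its own. The spread behind each p-value may thus be partly technical and understate the variation between mice. WT livers at ZT 12 and ZT 0, 3 arrays each, serve below as the comparison without tumour.

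The mammalian clock is a transcriptional loop. BMAL1 (gene Arntl) pairs with CLOCK or NPAS2 and switches on the Period and Cryptochrome genes, whose proteins come back to block the pair. A second loop joins the nuclear receptors REV-ERB-alpha and REV-ERB-beta (Nr1d1 and Nr1d2), which repress Arntl, and ROR-alpha, which activates it. The PAR bZIP factors DBP, TEF and HLF pass the rhythm to genes with D-boxes, against NFIL3, which represses the same sites. In liver these loops and daily feeding together time sugar, lipid and bile acid metabolism.

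Values are linear probe set intensities made by the authors with PLIER, and differences are on the scale of log2(intensity + 16), which understates the change of genes near 16 units. Levels are given per gene and are not compared between genes, since probe sets differ in brightness. In limma, over 22180 genes, 316 differed between TB ZT 12 and TB ZT 0 livers at a Benjamini-Hochberg adjusted p under 0.05, which is 1.42% of the genes tested. Of these, 98 were higher at ZT 12 (0.442%) and 218 lower (0.983%). A total of 2220 genes had an unadjusted p under 0.05. The 3 arrays of 1 group lay wholly above or below those of the other for 2928 genes (13.2%), and for 307 of the 316. Among genes past the threshold, 41 were at least 2-fold higher and 66 at least 2-fold lower, with a median difference of 0.83 log2 for the higher and −0.77 for the lower ones. The median over all genes was 0.02. Below, "rose" and "fell" are used of ZT 12 against ZT 0 and of genes past the threshold alone, and gene counts of a list are read against these shares.

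Pairs of TB ZT 12 arrays correlated at r = 0.978 to 0.985 and pairs of TB ZT 0 arrays at 0.959 to 0.973. The hepatocyte markers averaged 12.48, 12.38 and 12.43 log2 on the TB ZT 12 arrays and 12.46, 12.37 and 12.39 on the TB ZT 0 arrays, so liver genes were high on all 6. The male chromosome gene Eif2s3y lay between 167 and 273 intensity units on all 6 arrays, and Xist, which marks the inactive X, between 20.8 and 35.7. The ZT 0 arrays differed more among themselves: TB ZT 0 replicate 1 had 189 genes over 1 log2 above and 209 below the mean of the other ZT 0 arrays, replicate 3 had 150 and 156, and replicate 2 had 61 and 62, while the ZT 12 arrays had 18 to 48 above and 15 to 70 below. On TB ZT 0 replicate 1, Mup20, a urinary protein gene of male liver, was at 419 units, against 8341 and 8134 on the other TB ZT 0 arrays. Sult1e1, an oestrogen sulfotransferase, was at 7421 units there, against 50.4 and 749.8. In log2, the mean of 21 male-biased liver genes was 7.46 there against 10.15 and 10.43, that of 23 acute phase genes 11.78 there against 10.60 and 10.46, and that of 18 glucocorticoid targets 9.57 there against 8.69 and 8.43. Without this array 450 genes differed (144 higher, 306 lower), 260 of them among the 316. What set this array apart was not tested.

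The arrays also fell into 2 sets that the labels do not name, 12 arrays in the smaller and 24 in the larger. They were found from deviations from group means over probe sets without a gene symbol, whose first component took 28.8% of the variance within groups. Replicate 3 of TB ZT 12 and replicate 3 of TB ZT 0 belonged to the smaller set, so each set held both times. With the set as a block 510 genes differed, which held all 316. Without the smaller-set arrays of TB ZT 12 and TB ZT 0, 2 arrays against 2, 134 genes differed, 130 of them among the 316. That fit kept the smaller-set arrays of the other groups, so it is not a test within the larger set. The smaller set allowed no test with 1 array on each side. Leaving out TB ZT 12 replicate 1 gave 166 genes and leaving out TB ZT 0 replicate 3 gave 177.

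**Figure D1:**
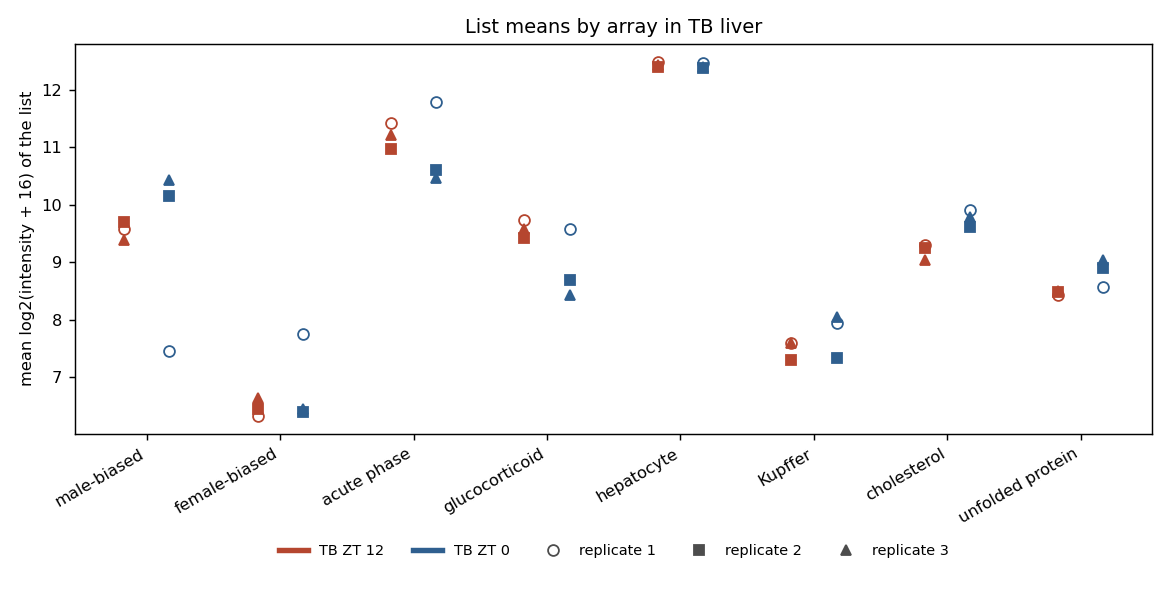
Mean log2(intensity + 16) of 8 gene lists (vertical axis) on each TB array, with ZT 12 (red) left of ZT 0 (blue) and a symbol for each replicate. TB ZT 0 replicate 1 (open blue circle) was at 7.46 for male-biased genes, where the other 5 arrays lay between 9.38 and 10.43, while the hepatocyte markers lay between 12.37 and 12.48 on all 6 arrays.

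The promoters of 7 core clock genes that passed the threshold hold a clock motif near the start of transcription, and they are shown because they carry the letters through which the loops are known to act. Sequences are from RefSeq (mouse build GRCm38.p6), from 250 bases before to 50 bases after each start, and both strands were searched for the E-box CACGTG bound by BMAL1 with CLOCK, the D-box TTATGTAA or TTACGTAA bound by DBP and NFIL3, and the core TAGGTCA or TGGGTCA bound by REV-ERB and ROR proteins. No matches in these windows overlapped, and where a gene has several starts the first with a match is shown. Capitals mark the matches, and the Nfil3 match is the reverse complement. The windows are Ciart (chr3:95882179-95882478, minus strand), Per1 (chr11:69098699-69098998, plus strand), Cry1 (chr10:85185005-85185304, minus strand), Tef (chr15:81802423-81802722, plus strand), Per3 (chr4:151044616-151044915, minus strand), Arntl (chr7:113207261-113207560, plus strand) and Nfil3 (chr13:52980990-52981289, minus strand). Each is printed 5′ to 3′ on the strand of its gene.
Ciart: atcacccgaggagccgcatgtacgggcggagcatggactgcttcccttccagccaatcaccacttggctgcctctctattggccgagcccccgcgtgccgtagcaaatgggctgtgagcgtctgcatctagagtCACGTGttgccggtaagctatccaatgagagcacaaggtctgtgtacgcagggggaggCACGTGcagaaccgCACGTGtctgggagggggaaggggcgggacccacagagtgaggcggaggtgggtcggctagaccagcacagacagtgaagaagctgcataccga
Per1: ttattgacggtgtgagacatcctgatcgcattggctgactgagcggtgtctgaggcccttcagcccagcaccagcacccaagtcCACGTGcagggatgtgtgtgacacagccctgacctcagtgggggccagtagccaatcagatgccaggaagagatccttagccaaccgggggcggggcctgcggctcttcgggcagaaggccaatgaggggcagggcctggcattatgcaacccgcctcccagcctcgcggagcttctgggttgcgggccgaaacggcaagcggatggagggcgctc
Cry1: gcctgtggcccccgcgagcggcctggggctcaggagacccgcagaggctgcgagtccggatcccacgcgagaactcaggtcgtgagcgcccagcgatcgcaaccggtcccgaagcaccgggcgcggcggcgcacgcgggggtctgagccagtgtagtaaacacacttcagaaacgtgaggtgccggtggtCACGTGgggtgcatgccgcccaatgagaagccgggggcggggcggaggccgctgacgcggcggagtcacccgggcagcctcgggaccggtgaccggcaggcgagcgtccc
Tef: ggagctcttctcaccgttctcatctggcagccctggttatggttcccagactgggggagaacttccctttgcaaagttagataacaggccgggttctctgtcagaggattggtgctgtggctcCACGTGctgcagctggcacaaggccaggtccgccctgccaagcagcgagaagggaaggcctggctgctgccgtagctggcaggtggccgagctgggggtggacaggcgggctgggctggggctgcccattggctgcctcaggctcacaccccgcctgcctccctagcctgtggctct
Per3: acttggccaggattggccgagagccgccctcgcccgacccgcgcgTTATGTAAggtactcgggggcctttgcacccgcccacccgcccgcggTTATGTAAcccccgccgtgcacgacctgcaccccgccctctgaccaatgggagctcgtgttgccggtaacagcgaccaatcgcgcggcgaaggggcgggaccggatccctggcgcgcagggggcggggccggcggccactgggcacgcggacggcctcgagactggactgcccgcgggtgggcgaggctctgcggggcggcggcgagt
Arntl: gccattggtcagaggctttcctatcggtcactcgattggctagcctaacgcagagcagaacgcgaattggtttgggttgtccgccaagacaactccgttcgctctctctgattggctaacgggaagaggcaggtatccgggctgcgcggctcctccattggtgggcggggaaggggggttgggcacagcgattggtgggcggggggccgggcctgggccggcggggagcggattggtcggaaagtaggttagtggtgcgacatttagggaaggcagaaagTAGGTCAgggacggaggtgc
Nfil3: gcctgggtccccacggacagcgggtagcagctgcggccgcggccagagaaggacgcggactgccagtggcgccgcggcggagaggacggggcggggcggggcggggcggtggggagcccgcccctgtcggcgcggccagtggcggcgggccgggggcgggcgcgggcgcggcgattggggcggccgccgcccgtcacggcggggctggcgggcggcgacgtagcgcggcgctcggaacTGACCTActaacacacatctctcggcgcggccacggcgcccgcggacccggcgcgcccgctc

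Ciart had 3 E-boxes, 116, 58 and 44 bases before the start. Per1, Cry1 and Tef had 1 each, 166, 60 and 127 bases before it. Per3 had 2 D-boxes, 205 and 158 bases before the start. The REV-ERB and ROR core lay 31 bases after the start in Arntl and 12 bases before it in Nfil3. Of the 16 core clock genes with a window in the table, 5 held an E-box, 1 a D-box and 2 the REV-ERB and ROR core. A gene was counted if any of its starts matched, over 21 starts in all. Clock, Npas2, Nr1d2 and Dbp passed the threshold but had no match. Of all 32851 start windows in the table, 7.15% held the E-box, 1.06% the D-box and 6.45% the core. These shares are per window and not per gene, so they are not a like measure for the counts of genes. Of the 5 genes with an E-box Ciart, Per1 and Tef rose, Cry1 fell and Bhlhe41 did not pass.

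The clock activators were lower at ZT 12. All 3 measured members fell, with 0 rising. Arntl, which encodes BMAL1, had 24.6, 34.8 and 33.3 intensity units in TB ZT 12 livers, against 479.8, 412 and 564 in TB ZT 0 livers. Every ZT 12 array lay far below every ZT 0 array. The difference was −3.41 ± 0.19 log2 (SE, n = 3 arrays per group; adjusted p = 6.37e-13). This SE and those below rest on limma's spread over all 12 groups, not on the arrays compared alone. Npas2, the paralogue that can stand in for CLOCK, had 20.2, 18.1 and 21.3 in TB ZT 12 livers, against 234, 407 and 498 in TB ZT 0 livers. Its 3 ZT 12 values were close to the pseudocount, so the difference of −3.40 ± 0.26 (adjusted p = 3.49e-10) is an understated one. Clock itself had 281, 372 and 484 in TB ZT 12 livers, against 768, 919 and 956 in TB ZT 0 livers. These groups did not overlap either, with a smaller difference of −1.21 ± 0.14 (adjusted p = 2.58e-06).

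Of the 5 measured repressors of the activator pair 3 rose and 1 fell. Per1, a Period gene that glucocorticoids also induce, had 517, 394 and 424 in TB ZT 12 livers, against 221, 47.0 and 48.0 in TB ZT 0 livers. TB ZT 0 replicate 1 was well above the other ZT 0 arrays, yet all ZT 12 values lay above it, and the difference was 2.22 ± 0.34 (adjusted p = 0.000156). Per3, the Period gene with the D-boxes, had 243, 176 and 212 in TB ZT 12 livers, against 43.7, 21.4 and 46.4 in TB ZT 0 livers. It rose by 2.12 ± 0.21 (adjusted p = 7.03e-08) with no overlap. Ciart, whose protein CHRONO binds BMAL1 and represses it, had 306, 185 and 176 in TB ZT 12 livers, against 48.6, 20.0 and 37.0 in TB ZT 0 livers, and its rise of 2.22 ± 0.24 (adjusted p = 4.49e-07) was as large as that of Per1. Cry1, the Cryptochrome that acts late in the cycle, ran the other way, with 81.4, 78.3 and 98.9 in TB ZT 12 livers, against 121, 152 and 193 in TB ZT 0 livers. The groups did not overlap and the fall was −0.73 ± 0.18 (adjusted p = 0.0291). With 1 array left out at a time, as in the ranges of adjusted p below, the call of Cry1 was lost without TB ZT 12 replicate 1 or 2 or TB ZT 0 replicate 2 or 3 (adjusted p 0.0812 to 0.264). Per2, the remaining Period gene of this loop, was not analysed here because its probe set carries several gene symbols. Cry2, the other Cryptochrome, had 203, 152 and 135 in TB ZT 12 livers, against 119.5, 96.1 and 110.0 in TB ZT 0 livers, higher on every ZT 12 array, but its difference of 0.51 ± 0.17 did not pass (adjusted p = 0.168).

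Of the 5 genes of the REV-ERB, ROR and DEC loops 2 rose and 0 fell. Nr1d2, which encodes REV-ERB-beta, had 633, 555 and 728 in TB ZT 12 livers, against 300.4, 83.2 and 80.6 in TB ZT 0 livers. The ZT 12 arrays were all higher and the difference was 2.17 ± 0.28 (adjusted p = 1.46e-05), although TB ZT 0 replicate 1 was again the highest of its group. In limma on the 6 TB arrays alone Nr1d2 did not pass (adjusted p = 0.116). Nor did Clock (adjusted p = 0.0577), Per1 (adjusted p = 0.146), Cry1 (adjusted p = 0.235) or Bhlhe40 (adjusted p = 0.146) in that fit. It ended the calls of 34 of the 64 named genes past the threshold, and its losses are not given gene by gene below. Nr1d1, which encodes REV-ERB-alpha, had 265, 231 and 243 in TB ZT 12 livers, against 298, 62.1 and 52.1 in TB ZT 0 livers. Here TB ZT 0 replicate 1 lay above all 3 ZT 12 arrays, so the groups overlapped and the difference of 1.14 ± 0.37 did not pass (adjusted p = 0.167). Without that array the difference of Nr1d1 was 1.85 and passed (adjusted p = 0.000434). Bhlhe40, which encodes the repressor DEC1, had 956, 1048 and 1121 in TB ZT 12 livers, against 548, 492 and 741 in TB ZT 0 livers, without overlap, and passed narrowly at 0.81 ± 0.21 (adjusted p = 0.0495). Its call was lost without TB ZT 12 replicate 1, 2 or 3 or TB ZT 0 replicate 1 or 2 (adjusted p 0.111 to 0.2), with the replicate number as a block in the fit of all arrays (adjusted p = 0.0635), and with each array centred on its median (adjusted p = 0.0782). Bhlhe41, which encodes DEC2, was low on all 6 arrays, between 26.0 and 46.8 units, and differed by 0.46 (adjusted p = 0.706). Rora, the activating receptor, lay between 292 and 435 units with overlap and differed by −0.24 (adjusted p = 0.531).

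The PAR bZIP factors gave the largest rise of all named genes. Dbp, an albumin promoter factor under direct control of the clock, had 1255, 942 and 677 in TB ZT 12 livers, against 59.8, 30.6 and 35.4 in TB ZT 0 livers. Even the lowest ZT 12 array was far above the highest ZT 0 array, and the difference was 4.06 ± 0.24 log2 (16.7-fold on this scale; adjusted p = 1.36e-12). Tef, a second factor of the family, had 304, 253 and 221 in TB ZT 12 livers, against 109, 46.4 and 65.0 in TB ZT 0 livers. It rose by 1.67 ± 0.20 (adjusted p = 4.77e-06). Hlf, the third, had 244, 378 and 313 in TB ZT 12 livers, against 222, 241 and 208 in TB ZT 0 livers, with no overlap but a difference of only 0.43 ± 0.14 that did not pass (adjusted p = 0.174). Nfil3, the repressor that competes for the same sites, ran opposite to them with 129, 112 and 145 in TB ZT 12 livers, against 362, 312 and 374 in TB ZT 0 livers. It fell by 1.34 ± 0.17 (adjusted p = 8.95e-06). Over the 4 genes 2 rose and 1 fell, the same as without TB ZT 0 replicate 1.

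**Figure D2:**
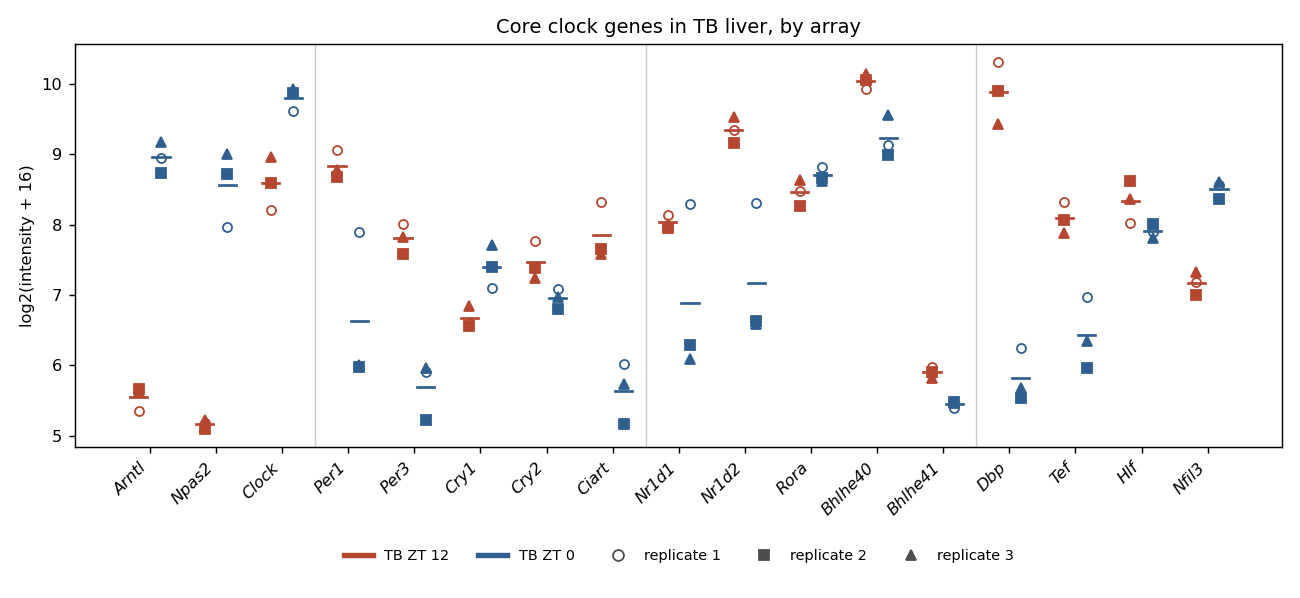
log2(intensity + 16) (vertical axis) of 17 core clock genes on each TB array, with ZT 12 (red) left of ZT 0 (blue), a symbol for each replicate and a bar for the group mean. Arntl, Npas2, Clock and Nfil3 sit lower at ZT 12, Dbp, Tef, Per1, Per3, Ciart and Nr1d2 higher, and TB ZT 0 replicate 1 is the high open blue circle of Per1, Nr1d1 and Nr1d2.

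The other times of day place these differences on the daily curve. In the order of the 6 times, from ZT 0 to ZT 20 in steps of 4 h, TB means of Arntl were 8.96 ± 0.22, 8.06 ± 0.39, 5.55 ± 0.02, 5.54 ± 0.17, 7.95 ± 0.18 and 8.83 ± 0.11 log2 (SD, n = 3 each). The low of Arntl thus spanned ZT 8 and ZT 12, which differed by less than their spread, and its high spanned ZT 20 and ZT 0. For Dbp the same means were 5.82 ± 0.37, 7.89 ± 0.41, 10.05 ± 0.28, 9.88 ± 0.44, 7.89 ± 0.09 and 6.33 ± 0.19, with ZT 8 and ZT 12 again within their spread. Nr1d1 came earlier, with 9.58 ± 0.13 at ZT 4 and 9.57 ± 0.66 at ZT 8 against 8.03 ± 0.09 at ZT 12, so that ZT 12 caught it on its way down. Cry1 came later, with its lowest mean of 5.99 ± 0.12 at ZT 8 and its highest of 8.07 ± 0.14 at ZT 20. Usp2, which encodes a deubiquitinase of clock proteins, reached 9.63 ± 0.01 at ZT 12 and was lowest not at ZT 0 but at ZT 4, at 5.53 ± 0.52.

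Over all genes past the threshold, ZT 12 and ZT 0 were not always the extremes, and since the genes were chosen on these 2 times the following counts are a description. Of the 98 higher genes, the highest TB mean of the 6 times was at ZT 12 for 80, at ZT 8 for 17 and at ZT 16 for 1. Their lowest mean was at ZT 0 for 57, at ZT 4 for 27 and at ZT 20 for 14. Of the 218 lower genes, the lowest mean was at ZT 12 for 183, at ZT 8 for 34 and at ZT 4 for 1. Their highest mean was at ZT 0 for 116, at ZT 20 for 70, at ZT 4 for 30 and at ZT 16 for 2.

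**Figure D3:**
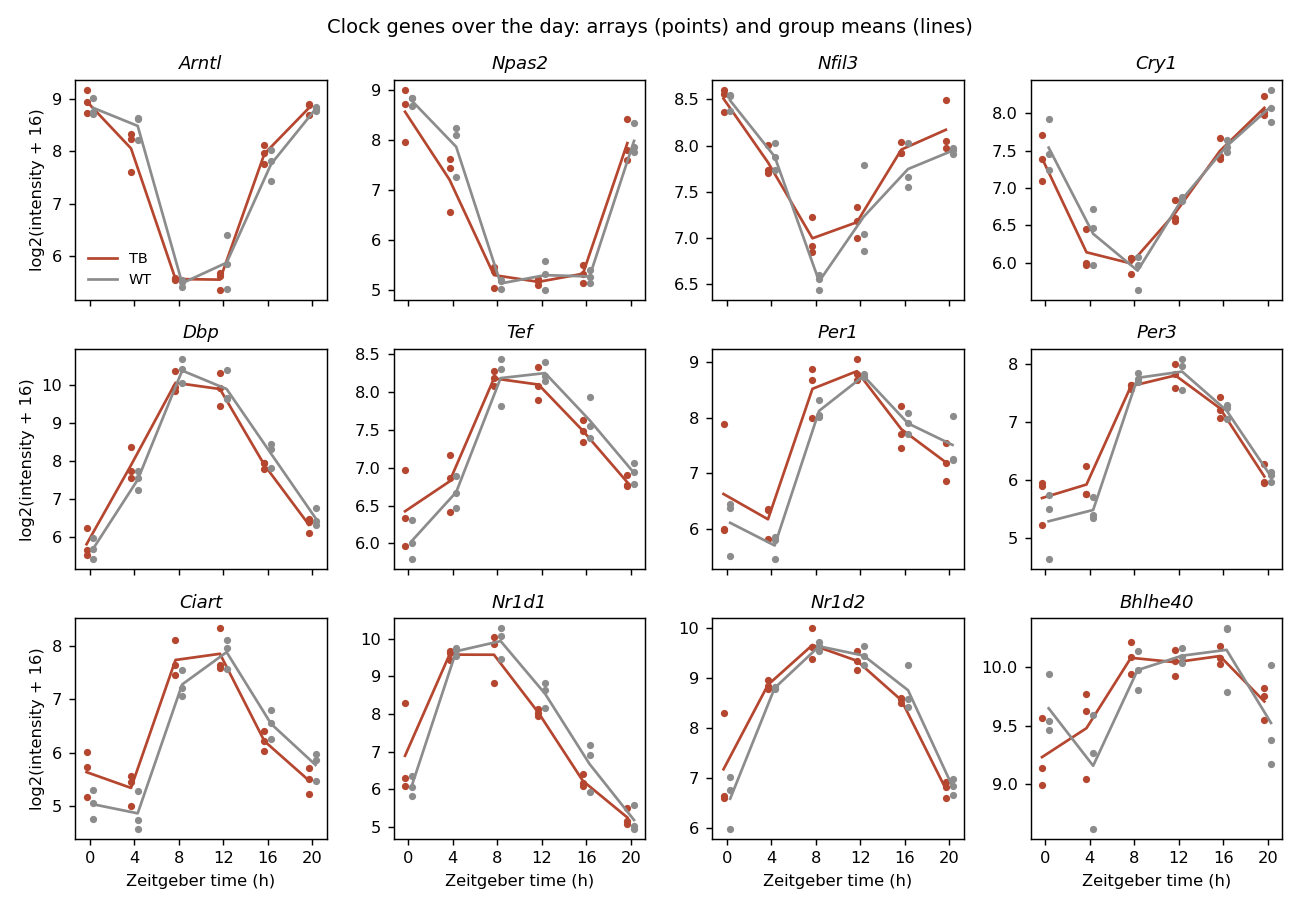
log2(intensity + 16) (vertical axes) of 12 clock genes against Zeitgeber time in hours, with TB in red and WT in grey, points for arrays and lines through group means. In TB livers Arntl and Npas2 are low at ZT 8 and ZT 12, Dbp is high at both, Nr1d1 is past its high of ZT 4 and ZT 8, and Cry1 is highest at ZT 20.

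Outside the core loops the largest rise belonged to Rgs16, which speeds the inactivation of G proteins. It had 564, 634 and 884 in TB ZT 12 livers, against 41.1, 23.1 and 18.5 in TB ZT 0 livers, a difference of 4.04 ± 0.65 (adjusted p = 0.000322), and its ZT 0 values were near the pseudocount. Usp2 had 787, 774 and 775 in TB ZT 12 livers, against 106, 62.9 and 89.6 in TB ZT 0 livers. Its 3 ZT 12 arrays lay close together, and the rise of 2.98 ± 0.21 passed (adjusted p = 5.6e-11). Lpin1, a phosphatidate phosphatase that also coactivates fat oxidation genes, had 2592, 1492 and 1551 in TB ZT 12 livers, against 497, 187 and 227 in TB ZT 0 livers. It rose by 2.64 ± 0.34 (adjusted p = 9.11e-06). Gpcpd1, which splits glycerophosphocholine, had 2531, 1364 and 1529.9 in TB ZT 12 livers, against 586, 213 and 209 in TB ZT 0 livers, and rose by 2.48 ± 0.32 (adjusted p = 1.24e-05). In Lpin1 and Gpcpd1 alike TB ZT 12 replicate 1 was the highest ZT 12 array and TB ZT 0 replicate 1 the highest ZT 0 array. Mfsd2a, a carrier of lysophosphatidylcholine, rose by 2.31 ± 0.55 and Angptl4, a secreted inhibitor of lipoprotein lipase, by 2.25 ± 0.48. Upp2, a liver uridine phosphorylase, rose by 1.93 ± 0.27. The call of Mfsd2a (adjusted p = 0.0216) was lost without TB ZT 12 replicate 1 or 3 or TB ZT 0 replicate 2 or 3 (adjusted p 0.0752 to 0.164), and that of Angptl4 (adjusted p = 0.00898) without TB ZT 0 replicate 3 (adjusted p = 0.0667).

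Among genes past the threshold whose groups did not overlap and whose higher mean was at least 6 log2, Tubb2a gave the largest fall outside the core loops (Sult1e1, whose groups overlapped, is given with the sex-biased genes). Tubb2a, a beta-tubulin, had 37.4, 57.7 and 67.0 in TB ZT 12 livers, against 394, 657 and 670.0 in TB ZT 0 livers, and fell by 3.06 ± 0.25 log2 (adjusted p = 2.1e-09). Chka, the choline kinase that starts phosphatidylcholine synthesis, had 62.5, 61.0 and 68.0 in TB ZT 12 livers, against 376, 483 and 584 in TB ZT 0 livers. The groups lay far apart, and the difference was −2.62 ± 0.15 (adjusted p = 1.29e-12). Ppp1r3c, which targets protein phosphatase 1 to glycogen, had 52.7, 111 and 99.7 in TB ZT 12 livers, against 285, 996 and 787 in TB ZT 0 livers. TB ZT 0 replicate 1 was the lowest of its group and still above every ZT 12 array, and the difference was −2.64 ± 0.38 (adjusted p = 6.46e-05). Insig2, which holds the sterol sensor SCAP in the endoplasmic reticulum, had 150.2, 280.0 and 237 in TB ZT 12 livers, against 871, 1366 and 1014 in TB ZT 0 livers, and fell by 2.22 ± 0.22 (adjusted p = 7.03e-08). Dhrs9, a short-chain dehydrogenase of retinol and steroid metabolism, differed by −2.45 ± 0.30 and Ddc, the aromatic amino acid decarboxylase, by −2.07 ± 0.27. Clpx, the unfoldase of a mitochondrial protease, differed by −2.05 ± 0.19, the tight junction gene Cldn1 by −1.86 ± 0.18 and the vasopressin receptor gene Avpr1a by −1.73 ± 0.27. All 5 were lower on every ZT 12 array, with adjusted p-values from 1.88e-08 to 0.000187.

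**Figure D4:**
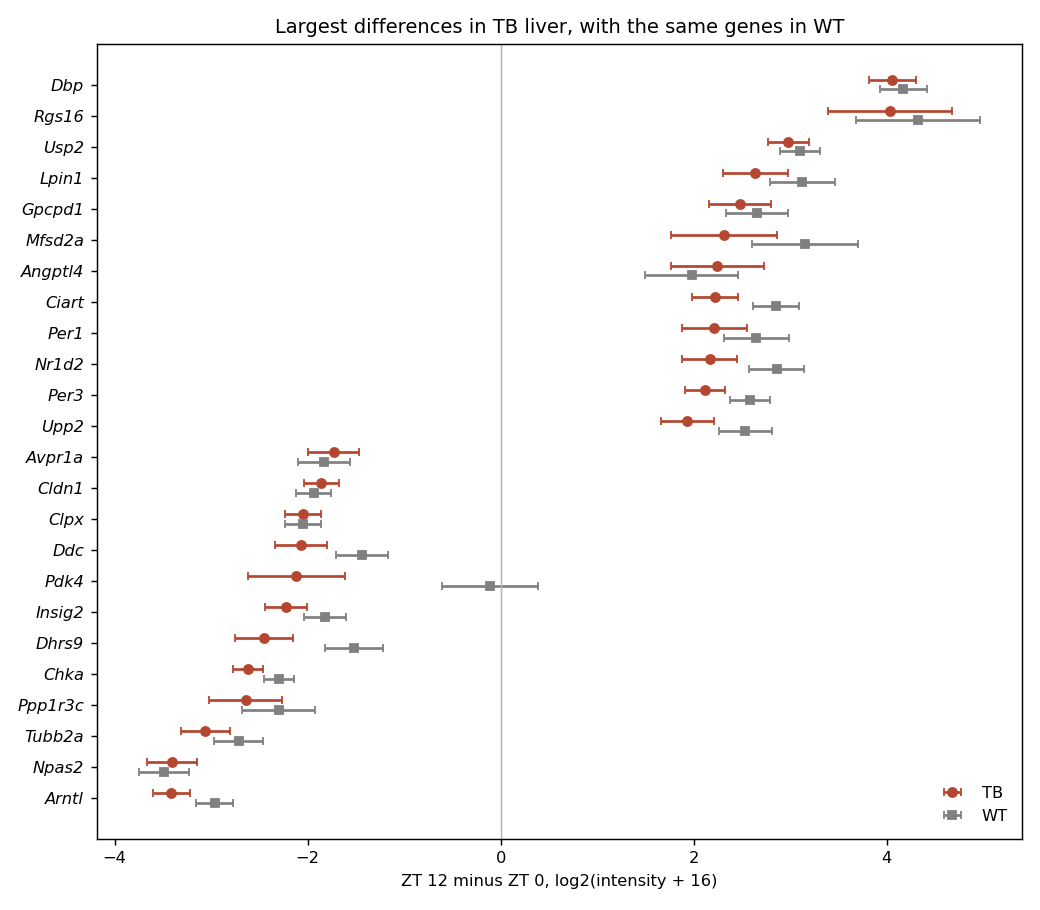
ZT 12 minus ZT 0 difference in log2(intensity + 16) (horizontal axis) with its standard error for the 12 largest rises and 12 largest falls in TB liver (red) among genes past the threshold whose groups did not overlap and whose higher mean was at least 6 log2, with the same genes in WT liver (grey). The genes were chosen on the TB values, and the WT difference nearest to 0 is that of Pdk4 at −0.11.

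The list of rhythmic clock outputs, genes known to cycle in liver, had 7 rising and 7 falling of 20 measured. It was assembled with earlier results of these data known, so its count is not independent evidence. Wee1, a kinase that delays mitosis and is driven by the clock, had 182, 175 and 219 in TB ZT 12 livers, against 39.2, 26.5 and 55.1 in TB ZT 0 livers, and rose by 1.91 ± 0.20 (adjusted p = 2.96e-07). It was the 1 of 23 cell cycle genes that passed. With Wee1, Lpin1, Upp2, Rgs16, Gys2, Alas1 and Nampt rose, and with Chka, Tubb2a and Insig2, the members Leo1, Grk5, Ppard and Pnp fell. Gys2, Alas1, Nampt, Leo1, Grk5, Ppard and Pnp complete the count and were taken up after their values were seen. Among 7 clock kinases and ligases Usp2 rose and 0 fell.

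Genes of glucose and glycogen handling moved in both directions. In glucose production 2 of 9 rose and 0 fell. Slc37a4, the glucose 6-phosphate carrier of the endoplasmic reticulum, had 1009, 841 and 959 in TB ZT 12 livers, against 480.3, 398 and 457 in TB ZT 0 livers, without overlap, and rose by 1.05 ± 0.20 (adjusted p = 0.0027). Pck1, the cytosolic enzyme that commits carbon to glucose, had 5533, 4133 and 4585 in TB ZT 12 livers, against 4503, 1581 and 830.2 in TB ZT 0 livers. TB ZT 0 replicate 1 lay inside the ZT 12 range, and the rise of 1.37 ± 0.35 (adjusted p = 0.0376) was lost without TB ZT 12 replicate 1, 2 or 3 or TB ZT 0 replicate 2 or 3 (adjusted p 0.0724 to 0.454). Its difference was 0.82 without TB ZT 0 replicate 3, and with the replicate number as a block it did not pass in the fit of all arrays (adjusted p = 0.051) or of the 6 arrays alone (adjusted p = 0.116). Of 18 genes of glycolysis and glycogen 2 rose and 3 fell. Gys2, the liver glycogen synthase, had 3306, 2090.2 and 2024 in TB ZT 12 livers, against 704, 1014 and 1029 in TB ZT 0 livers, and rose by 1.40 ± 0.20 (adjusted p = 7.76e-05). The glycogen genes Gys2 and Ppp1r3c thus ran in opposite directions. Pfkfb3, which makes the activator of phosphofructokinase, rose by 1.01 ± 0.15 (adjusted p = 0.000127). Pgk1, a glycolytic kinase, had 896, 1080.5 and 1136 in TB ZT 12 livers, against 1433, 1272 and 1470.3 in TB ZT 0 livers, and fell by 0.42 ± 0.09 (adjusted p = 0.00873), a call lost without TB ZT 12 replicate 1 or TB ZT 0 replicate 3 (adjusted p 0.0738 to 0.145). With the replicate number as a block in the 6 arrays Pgk1 did not pass either (adjusted p = 0.187). Gckr, the glucokinase inhibitor, was the third to fall and is named, after its value was seen, to complete the count.

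Among 19 genes of the insulin pathway and IGF axis 2 rose and 0 fell. Foxo1, the transcription factor that insulin keeps out of the nucleus, had 549, 453 and 654 in TB ZT 12 livers, against 381, 285 and 360.2 in TB ZT 0 livers, and rose by 0.66 ± 0.13 (adjusted p = 0.00359). Igfbp4, a binding protein of insulin-like growth factors, had 3229.6, 2982 and 3116 in TB ZT 12 livers, against 2737, 2193 and 2045 in TB ZT 0 livers, a rise of 0.43 ± 0.10 (adjusted p = 0.0146) that was lost without TB ZT 12 replicate 1 or TB ZT 0 replicate 2 or 3 (adjusted p 0.0812 to 0.162) or with median centring (adjusted p = 0.0542), or with the replicate number as a block in the 6 arrays (adjusted p = 0.165). Of 20 autophagy and lysosome genes 2 rose and 0 fell. Ulk1, the kinase that starts autophagosome formation, had 495, 401 and 448 in TB ZT 12 livers, against 268, 163 and 231 in TB ZT 0 livers, and rose by 0.99 ± 0.17 (adjusted p = 0.000772). Bnip3, a mitophagy receptor, had 743, 591 and 599 in TB ZT 12 livers, against 521, 282 and 257 in TB ZT 0 livers, and rose by 0.90 ± 0.19 (adjusted p = 0.00825). Its call was lost without TB ZT 12 replicate 1 or TB ZT 0 replicate 2 or 3 (adjusted p 0.0711 to 0.113).

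Of 29 genes of fat oxidation and ketone production 3 rose and 1 fell. Cpt1a, the gate for fatty acids into mitochondria, had 2744, 2361 and 2216 in TB ZT 12 livers, against 1245, 946 and 754 in TB ZT 0 livers, with no overlap, and rose by 1.32 ± 0.19 (adjusted p = 8.24e-05). Ppara, the nuclear receptor for fatty acids, had 706, 789 and 786 in TB ZT 12 livers, against 261, 429 and 407 in TB ZT 0 livers, and rose by 1.05 ± 0.18 (adjusted p = 0.000556). The third was Angptl4, at 434, 548 and 544 in TB ZT 12 livers, against 82.7, 135 and 73.7 in TB ZT 0 livers. Pdk4, a kinase that shuts pyruvate dehydrogenase, is induced by the same receptor but fell, with 64.6, 70.7 and 82.0 in TB ZT 12 livers, against 205, 437 and 546 in TB ZT 0 livers. The groups did not overlap, and the difference was −2.12 ± 0.50 (adjusted p = 0.0216). The call of Pdk4 was lost without TB ZT 12 replicate 1 or 2 or TB ZT 0 replicate 2 or 3 (adjusted p 0.0758 to 0.164). The list's median difference was 0.25, and 0.10 without TB ZT 0 replicate 1, against 0.02 over all genes.

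In fatty acid synthesis 3 of 24 rose and 1 fell, and the 3 are not enzymes of the synthase route. They were Lpin1, its relative Lpin2 (1.09 ± 0.20, adjusted p = 0.00229) and Fads2, a desaturase of polyunsaturated fatty acids. Lpin2 has 2 probe sets, and its call was lost in limma on the mean of probe sets (1.04, adjusted p = 0.0865). Fads2 had 4569, 4455 and 4661 in TB ZT 12 livers, against 2178, 2848 and 2831 in TB ZT 0 livers, a rise of 0.81 ± 0.18 (adjusted p = 0.0105) that was lost without TB ZT 12 replicate 1 or TB ZT 0 replicate 1 (adjusted p 0.0512 to 0.0634). Acss2, which makes acetyl-CoA from acetate and is a target of the sterol factors SREBP, had 482, 690.1 and 559.8 in TB ZT 12 livers, against 1316, 1165 and 1213 in TB ZT 0 livers. It fell by 1.09 ± 0.23 (adjusted p = 0.00886), a call lost without TB ZT 12 replicate 1 (adjusted p = 0.0873). The list counted 2 rising and 3 falling without TB ZT 0 replicate 1.

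Most genes of cholesterol synthesis were lower at ZT 12, though few passed. Of 18 measured genes 3 fell and 0 rose, 17 had a negative difference (17 under quantile normalization and 18 under median centring), and the median was −0.56 log2 against 0.02 over all genes. The ZT 12 values were wholly below those of ZT 0 for 11 of them. Hmgcs1, which makes the precursor of mevalonate, had 1300.2, 1311 and 1234 in TB ZT 12 livers, against 2530.4, 2743 and 3126 in TB ZT 0 livers, and fell by 1.11 ± 0.28 (adjusted p = 0.0326). Mvd, which makes isopentenyl pyrophosphate, had 199, 172 and 89.9 in TB ZT 12 livers, against 322, 340.2 and 350.3 in TB ZT 0 livers, and fell by 1.12 ± 0.27 (adjusted p = 0.0218). Insig1, a brake on the pathway and itself an SREBP target, had 1635, 1419 and 1116 in TB ZT 12 livers, against 2125, 2349 and 3036 in TB ZT 0 livers, and fell by 0.84 ± 0.20 (adjusted p = 0.019). List means were 9.30, 9.25 and 9.03 log2 on the ZT 12 arrays and 9.91, 9.61 and 9.79 on the ZT 0 arrays. Each call hung on single arrays: that of Hmgcs1 was lost without TB ZT 12 replicate 1, 2 or 3 or TB ZT 0 replicate 2 or 3 (adjusted p 0.0839 to 0.164), that of Mvd without TB ZT 12 replicate 3 or TB ZT 0 replicate 2 or 3 (adjusted p 0.0719 to 0.181), and that of Insig1 without TB ZT 12 replicate 2 or 3 or TB ZT 0 replicate 3 (adjusted p 0.0547 to 0.18) or with the replicate number as a block in the 6 arrays (adjusted p = 0.0938). In WT livers the list's median was −0.01 with 0 members past the threshold, and whether the list differed between genotypes was not tested.

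Of 20 genes of bile acid synthesis and transport 1 rose and 2 fell. Cyp7a1, the rate-limiting enzyme of bile acid synthesis, had 2748, 2419 and 2872 in TB ZT 12 livers, against 1335, 816 and 852 in TB ZT 0 livers. Every ZT 12 array was higher, and the rise was 1.44 ± 0.31 (adjusted p = 0.0085). Abcb11, the pump that exports bile salts into bile, ran the other way with 820.4, 822 and 1073 in TB ZT 12 livers, against 1414, 2319 and 2149.9 in TB ZT 0 livers, and fell by 1.08 ± 0.19 (adjusted p = 0.00133). Baat, which couples bile acids to taurine or glycine, fell by 0.44 ± 0.11 (adjusted p = 0.0421). The call of Cyp7a1 was lost without TB ZT 0 replicate 2 or 3 (adjusted p 0.0575 to 0.063). The call of Baat was lost without TB ZT 12 replicate 1 or 2 or TB ZT 0 replicate 2 or 3 (adjusted p 0.0894 to 0.324), with the replicate number as a block in the fit of all arrays (adjusted p = 0.0571) or of the 6 (adjusted p = 0.128), and under quantile normalization (adjusted p = 0.13). The list counted 3 rising and 3 falling without TB ZT 0 replicate 1. Of 16 genes of lipoproteins and lipid transfer 0 passed in limma, 1 with an unadjusted p under 0.05. Apoa5, a plasma triglyceride regulator, had the smallest p, with 2438, 2324 and 2049.8 in TB ZT 12 livers, against 1647, 1617 and 1188 in TB ZT 0 livers, and differed by 0.62 ± 0.19 (adjusted p = 0.119).

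Glucocorticoid targets rose in 4 of 18 cases, with 0 falling and 6 rising without TB ZT 0 replicate 1, the array with the highest list mean of the ZT 0 group. The 4 were Lpin1, Per1, Zbtb16 and Errfi1, and under quantile normalization and under median centring alike 4 rose and 1 fell. Zbtb16, a zinc finger repressor, had 465, 279 and 424 in TB ZT 12 livers, against 313, 86.6 and 79.9 in TB ZT 0 livers. TB ZT 0 replicate 1 lay within the ZT 12 range, and the rise was 1.42 ± 0.34 (adjusted p = 0.0214). Errfi1, a feedback inhibitor of the EGF receptor, had 4629, 4429 and 4284 in TB ZT 12 livers, against 3183, 2602 and 2677 in TB ZT 0 livers, and rose by 0.66 ± 0.16 (adjusted p = 0.0217). Zbtb16 lost its call without TB ZT 12 replicate 1 or 3 or TB ZT 0 replicate 2 or 3 (adjusted p 0.0812 to 0.223) and Errfi1 without TB ZT 12 replicate 1 or 2 or TB ZT 0 replicate 2 or 3 (adjusted p 0.0719 to 0.118). Of 18 genes of haem synthesis and iron 1 rose, Alas1, the rate-limiting enzyme of haem synthesis, at 3692, 4189 and 3996 in TB ZT 12 livers, against 1076, 653 and 1560.1 in TB ZT 0 livers. Its rise of 1.92 ± 0.39 (adjusted p = 0.00565) was lost without TB ZT 0 replicate 2 (adjusted p = 0.0651). Of 24 genes of the urea cycle and amino acid breakdown 1 fell, Kynu, a kynureninase of tryptophan breakdown, at 647, 620.5 and 736 in TB ZT 12 livers, against 1132, 1174 and 973 in TB ZT 0 livers. It fell by 0.70 ± 0.11 (adjusted p = 0.000198), and did not pass with the replicate number as a block in the 6 arrays (adjusted p = 0.0519).

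Several chaperones of the endoplasmic reticulum fell at ZT 12. Of 27 genes of the unfolded protein and integrated stress response 4 fell and 0 rose, 21 were negative (21 under each of quantile normalization and median centring), and the median was −0.42. The count was 10 without TB ZT 0 replicate 1, whose list mean of 8.58 was the lowest of the ZT 0 group (8.89 and 9.05 on the other arrays). Hyou1, a chaperone of the Hsp70 family in that organelle, had 249, 369 and 306 in TB ZT 12 livers, against 406, 773 and 995 in TB ZT 0 livers, and fell by 1.12 ± 0.27 (adjusted p = 0.0271). Hspa5, the main chaperone there, had 947, 1096 and 1027 in TB ZT 12 livers, against 1243, 2328 and 2114 in TB ZT 0 livers, and fell by 0.83 ± 0.22 (adjusted p = 0.0494). Calr, which binds calcium and glycoproteins, had 2015, 2174 and 2612 in TB ZT 12 livers, against 2619, 3416 and 4148 in TB ZT 0 livers, and fell by 0.56 ± 0.14 (adjusted p = 0.0308). Manf, a secreted stress protein, fell by 1.06 ± 0.28 (adjusted p = 0.0494). All 4 calls were fragile, with Hyou1 lost without TB ZT 12 replicate 1 or 3 or TB ZT 0 replicate 2 or 3 (adjusted p 0.0698 to 0.272), Hspa5 without TB ZT 12 replicate 1, 2 or 3 or TB ZT 0 replicate 2 or 3 (adjusted p 0.0955 to 0.267), Calr without TB ZT 12 replicate 1 or 2 or TB ZT 0 replicate 2 or 3 (adjusted p 0.0997 to 0.324) and Manf without TB ZT 12 replicate 1, 2 or 3 or TB ZT 0 replicate 2 or 3 (adjusted p 0.0527 to 0.452). With the replicate number as a block Hspa5 (adjusted p = 0.0599) and Manf (adjusted p = 0.0659) did not pass in the fit of all arrays, nor did Calr in that of the 6 (adjusted p = 0.0702), and under quantile normalization Hspa5 did not (adjusted p = 0.0505).

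Of 18 heat shock chaperones 0 passed in limma (4 at an unadjusted p under 0.05), 15 were negative and the median was −0.21, with 4 falling without TB ZT 0 replicate 1. Hspa4l, of the Hsp110 family, had 51.3, 72.6 and 95.9 in TB ZT 12 livers, against 87.8, 159 and 169.8 in TB ZT 0 livers and differed by −0.78 ± 0.21 (adjusted p = 0.058), and it passed without that array (−1.04, adjusted p = 0.0042), under quantile normalization (adjusted p = 0.0479) and with median centring (adjusted p = 0.0476). Cirbp, a cold-inducible RNA-binding protein, had 59.9, 53.3 and 51.1 in TB ZT 12 livers, against 93.6, 25.1 and 44.3 in TB ZT 0 livers, with overlap. Of 13 NRF2 antioxidant targets 1 fell and 12 were negative. It was Gclc, the catalytic subunit that starts glutathione synthesis, at 410.0, 599.8 and 626 in TB ZT 12 livers, against 782, 1713 and 1694 in TB ZT 0 livers. It fell by 1.27 ± 0.26 (adjusted p = 0.00508), a call lost without TB ZT 12 replicate 1 or TB ZT 0 replicate 2 or 3 (adjusted p 0.0556 to 0.0721).

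Detoxification genes gave few calls. Of 21 xenobiotic P450 genes 1 fell and 0 rose, the member that fell being Cyp2c70, which in mouse makes muricholic acids, at 4449.7, 4286 and 4339 in TB ZT 12 livers, against 6049, 5578 and 6239 in TB ZT 0 livers. It fell by 0.45 ± 0.11 (adjusted p = 0.0353), a call lost without TB ZT 12 replicate 1, 2 or 3 or TB ZT 0 replicate 1 or 3 (adjusted p 0.078 to 0.175), and with the replicate number as a block in the 6 arrays (adjusted p = 0.115). The list counted 1 rising and 1 falling both under quantile normalization and without TB ZT 0 replicate 1. Of 20 phase II genes 2 fell and 0 rose. Gstm2, a glutathione transferase, had 343, 438 and 482 in TB ZT 12 livers, against 809, 767 and 950.3 in TB ZT 0 livers, and fell by 0.98 ± 0.21 (adjusted p = 0.00884). Ugdh, which makes UDP-glucuronic acid, had 594, 799 and 816 in TB ZT 12 livers, against 1143, 1208 and 1381 in TB ZT 0 livers, and fell by 0.75 ± 0.19 (adjusted p = 0.0331). Gstm2 lost its call without TB ZT 12 replicate 1 or TB ZT 0 replicate 3 (adjusted p 0.0739 to 0.101) and Ugdh without TB ZT 12 replicate 1 or 2 or TB ZT 0 replicate 2 or 3 (adjusted p 0.0559 to 0.297). Among 29 genes of the respiratory chain and ATP synthase 0 passed in limma (2 at an unadjusted p under 0.05), while 28 were negative, with a median of −0.14. Under quantile normalization 22 were negative with a median of −0.06, and under median centring 29 with a median of −0.18. Ndufa2, a complex I subunit, had the smallest p of them and differed by −0.34 ± 0.13 (adjusted p = 0.269).

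**Figure D5:**
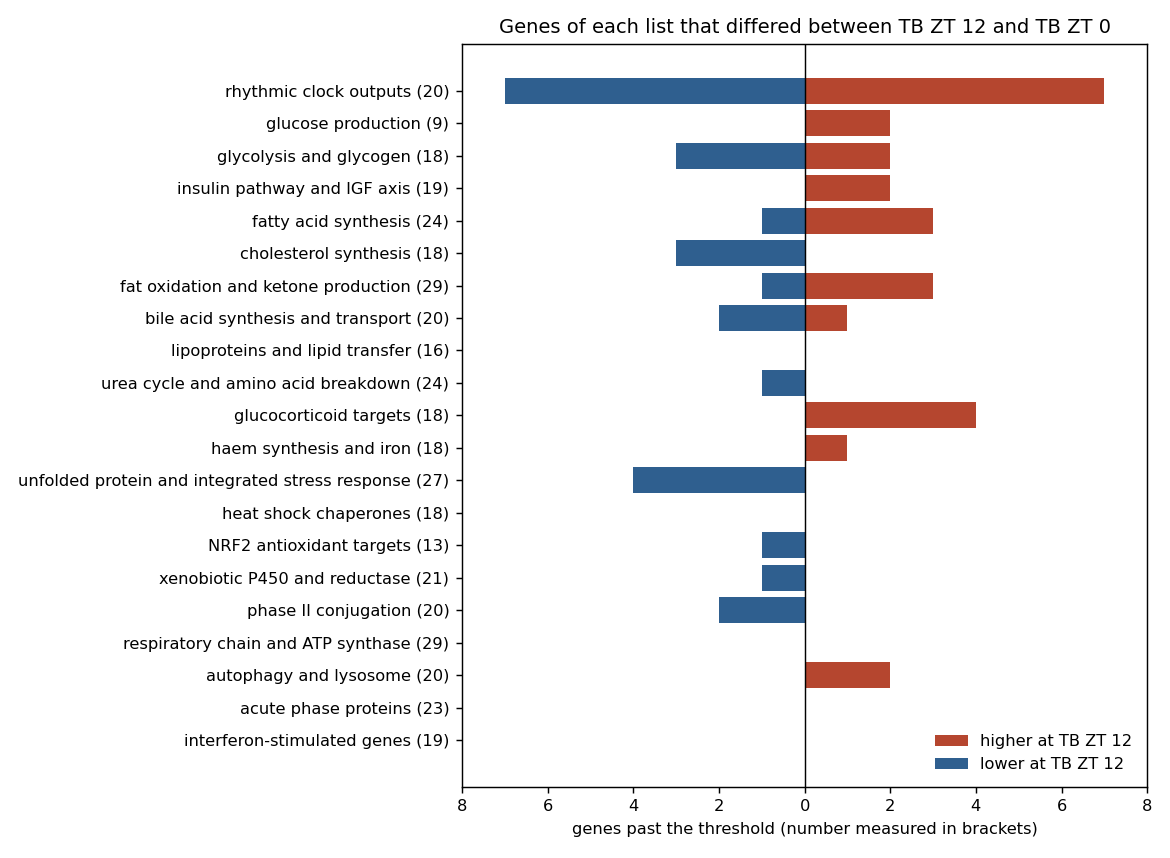
Number of genes past the threshold (horizontal axis) in 21 gene lists in TB liver, with genes higher at ZT 12 to the right (red) and lower to the left (blue), and the number measured in brackets. Clock outputs gave 7 and 7, glucocorticoid targets 4 higher and 0 lower, unfolded protein response genes 0 and 4, and acute phase proteins 0 and 0.

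Inflammatory programs gave no calls between the 2 times in TB liver by limma. Of 23 acute phase genes 0 passed, 2 with an unadjusted p under 0.05. Their list means were 11.42, 10.97 and 11.21 log2 on the ZT 12 arrays and 11.78, 10.60 and 10.46 on the ZT 0 arrays, and the highest was TB ZT 0 replicate 1. Without that array 1 member rose and 4 of the 23 were negative, against 9 with it. The list's median was then 0.40, against 0.15 with it. Crp, which binds bacterial surfaces, had the smallest p, with 2275, 2506 and 2743 in TB ZT 12 livers, against 3453, 3669.7 and 3465 in TB ZT 0 livers. All ZT 12 values were lower, but the difference of −0.49 ± 0.14 did not pass (adjusted p = 0.0743). Among 21 genes of IL-6 receptors, STAT3 and SOCS3, 0 passed (4 at an unadjusted p under 0.05), and Stat5b, a transcription factor of growth hormone signalling, came nearest at −0.52 ± 0.15 (adjusted p = 0.0679). Here too TB ZT 0 replicate 1 had the highest list mean (8.37, against 7.59 and 7.82 on the other ZT 0 arrays), and without it 1 member rose and the list's median was 0.32, against 0.08 with it. Of 19 interferon-stimulated genes, 20 immediate early genes and 24 ribosome biogenesis genes 0 passed, with 1, 3 and 1 at an unadjusted p under 0.05. The nearest were the antiviral gene Rsad2 at −0.53 ± 0.21 (adjusted p = 0.301), Klf10 at 0.57 ± 0.19 (adjusted p = 0.165) and Bop1 at −0.36 ± 0.11 (adjusted p = 0.128).

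Markers of the cell types a piece of liver can hold did not pass in limma either. In RNA of whole tissue, fewer cells of a type and less RNA per cell cannot be told apart. All 12 Kupffer cell and macrophage genes were negative, under quantile normalization and median centring too (11 without TB ZT 0 replicate 1), with a median of −0.24. Their means were 7.60, 7.30 and 7.60 on the ZT 12 arrays and 7.94, 7.34 and 8.04 on the ZT 0 arrays, which overlap. Adgre1, which encodes the F4/80 antigen, had 76.9, 64.1 and 98.1 in TB ZT 12 livers, against 98.1, 79.0 and 171 in TB ZT 0 livers. Of these 12 and of the 11 hepatocyte markers 0 had even an unadjusted p under 0.05, and Cyp2e1, an ethanol-oxidizing P450, had 8571, 9224 and 9789.9 in TB ZT 12 livers, against 7594, 8271 and 8881 in TB ZT 0 livers. Sox9, a cholangiocyte factor and the 1 of 6 such markers with an unadjusted p under 0.05, had 174, 169 and 140.1 in TB ZT 12 livers, against 306, 233 and 335 in TB ZT 0 livers, lower on every ZT 12 array, and just missed the threshold at −0.79 ± 0.21 (adjusted p = 0.0538), passing with median centring (adjusted p = 0.033). Of 10 lung epithelium markers 0 passed (2 at an unadjusted p under 0.05). Slc34a2, a phosphate carrier of lung epithelium, had 21.8, 22.6 and 25.4 in TB ZT 12 livers, against 26.7, 65.2 and 255 in TB ZT 0 livers. In WT livers it had 16.7, 24.5 and 30.1 at ZT 12, against 172, 40.1 and 33.0 at ZT 0. Its WT values were thus also lower on every ZT 12 array, with a difference of −1.03 that did not pass (limma adjusted p = 0.33). In TB livers Slc34a2 was highest on TB ZT 0 replicate 3 and did not pass (adjusted p = 0.187), but passed without TB ZT 0 replicate 1 (−1.92, adjusted p = 0.0125). Of 12 endothelial markers 0 passed, 10 were negative (8 under quantile normalization, 10 under median centring and 7 without TB ZT 0 replicate 1) and 4 had an unadjusted p under 0.05. Flt1, a VEGF receptor, had the smallest p of them, with 103, 83.8 and 83.4 in TB ZT 12 livers, against 150.2, 101 and 119 in TB ZT 0 livers, with overlap, and differed by −0.38 ± 0.14 (adjusted p = 0.244). Neutrophil, T and NK cell, B and plasma cell, stellate, muscle, pancreas, red cell and adipocyte lists had 0 of 75 members past the threshold and 3 at an unadjusted p under 0.05.

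Sex-biased liver genes were among those in which TB ZT 0 replicate 1 stood apart. Of 20 female-biased genes 2 fell and of 21 male-biased genes 0 passed (3 at an unadjusted p under 0.05). Sult1e1 had 49.8, 34.7 and 51.6 in TB ZT 12 livers, against 7421, 50.4 and 749.8 in TB ZT 0 livers. The groups overlapped, with a single ZT 0 array near the ZT 12 level and the others far above, and the difference was −3.57 ± 0.76 (adjusted p = 0.00873). It was −1.89 (adjusted p = 0.0419) without TB ZT 0 replicate 1 and −5.29 (adjusted p = 3.31e-08) without TB ZT 0 replicate 2. With the replicate number as a block in the 6 arrays it did not pass (adjusted p = 0.147). Cyp3a44 was under 64 units on all arrays, at 8.74, 20.0 and 18.8 in TB ZT 12 livers, against 63.9, 49.4 and 56.3 in TB ZT 0 livers, and differed by −1.20 ± 0.28 (adjusted p = 0.0171), lost without TB ZT 12 replicate 1 or TB ZT 0 replicate 1 or 3 (adjusted p 0.0542 to 0.162). Mup20 had 7426, 6983 and 7689.7 in TB ZT 12 livers, against 419, 8341 and 8134 in TB ZT 0 livers, and its difference of 1.25 ± 0.55 did not pass (adjusted p = 0.405). It was −0.16 (adjusted p = 0.816) without TB ZT 0 replicate 1, and the median of the 21 genes was then −0.49, against 0.13 with it.

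The same contrast in WT livers used no array of the TB contrast. There 338 genes (1.52%) differed, 208 higher and 130 lower at ZT 12. Genes past the threshold in both genotypes numbered 149, which is 47.2% of those in TB and 44.1% of those in WT, and all 149 had the same sign. Of the 316 TB genes 307 had the same sign in WT, against 55.6% of all genes. Dbp had 782, 1322 and 773 in WT ZT 12 livers, against 27.0, 36.2 and 47.8 in WT ZT 0 livers. Its WT difference of 4.17 was within the standard errors of the TB one. Arntl had 68.1, 25.1 and 41.7 in WT ZT 12 livers, against 405, 415 and 505 in WT ZT 0 livers, a WT difference of −2.96 (adjusted p = 1.36e-11). For Nr1d1, not past the threshold in TB, the WT difference was 2.45 (adjusted p = 0.000169), with 267, 381 and 437 in WT ZT 12 livers, against 51.0, 40.8 and 66.4 in WT ZT 0 livers.

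Whether a gene's ZT 12 minus ZT 0 difference itself differed between TB and WT was tested by limma as a difference of differences, and 0 genes passed (1225 at an unadjusted p under 0.05, smallest adjusted p 0.12; no other tool was run). No difference is therefore called particular to TB liver. Wif1, a secreted inhibitor of Wnt ligands, had the smallest p, with 166, 149 and 142 in TB ZT 12 livers, against 121, 125 and 86.4 in TB ZT 0 livers and 90.1, 93.2 and 91.7 in WT ZT 12 livers, against 157, 132 and 159 in WT ZT 0 livers. It was higher at ZT 12 on all TB arrays, a difference of 0.42 ± 0.13 that did not pass (adjusted p = 0.136), and lower on all WT arrays, where −0.61 passed (adjusted p = 0.00972), a difference of differences of 1.03 ± 0.19 log2. Without TB ZT 0 replicate 2, 2 genes passed, Wif1 (1.12, adjusted p = 0.0435) and Sult1e1 (−5.26, adjusted p = 0.000132). The other genes of smallest p were Ank3, Nqo1, Capn6, Cage1, Idh2, Tnfsf14 and Rhoq, each with an adjusted p of 0.861. In Ank3, Nqo1, Idh2 and Rhoq the highest of these 12 arrays was WT ZT 12 replicate 3, where skeletal muscle genes were high (Neb, a giant muscle protein, at 2912 units, against 195 and 277 on the other WT ZT 12 arrays, with a median WT difference of 2.00 log2 over 15 muscle genes). Without that array the differences of differences of these genes were −0.88, −0.95, −0.83 and −0.72, against −0.97, −1.24, −1.30 and −1.12 with it. The part of the muscle genes was not tested further. Pdk4, which fell in TB, had 86.7, 121 and 1130.4 in WT ZT 12 livers, against 253, 213 and 314 in WT ZT 0 livers, the high value being that same array. Its difference of differences was −2.01 (adjusted p = 0.861), and −0.92 (adjusted p = 0.73) without it. Acss2 differed by −1.09 in TB and 0.04 in WT and Pgk1 by −0.42 and −0.02, and neither difference of differences passed (adjusted p = 0.861 for each). That of Nr1d1 was −1.30 (adjusted p = 0.899), and −0.60 (adjusted p = 0.882) without TB ZT 0 replicate 1.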

How the data were processed

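Liver RNA of 6 TB arrays was compared within a fit of all 36. Per the labels, livers were flash frozen and RNA was extracted with Trizol and cleaned on columns. The deposited values are linear probe set intensities for 41345 probe sets, made with Affymetrix Expression Console 1.1.1 and PLIER 2.0 per the submitters' processing notes. The settings and any normalization between arrays are not stated there. Medians of arrays ran between 36.3 and 43.3 units, 23.0% of values were under 16, no arrays were identical, and 3 arrays per group limit the precision.

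Of the probe sets, 23521 had 1 gene symbol, 1814 several and 16010 none in the platform annotation, and 23328 (99.2%) of the first matched RefSeq (GRCm38.p6). The probe set of highest mean stood for each of 22180 genes. The log2 of value + 16 was fitted with limma 3.58.1 in R 4.3.3 (12 group means, eBayes, two-sided, Benjamini-Hochberg over all genes, threshold 0.05), which was tested on simulated data. The 47 lists held 745 symbols, 672 of them measured. Members and lists were chosen with earlier results of these data known. Named genes were all core clock genes, the 12 largest differences each way among genes past the threshold whose groups did not overlap and whose higher mean was at least 6 log2, the 4 of smallest p in a list, among those past the threshold, or else the 1 of smallest p, the 8 smallest p of the difference of differences and the sex chromosome genes; predicted models were left out. The alleles of the model are not reported here.

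The replicate numbers come from the titles. Deviations of TB ZT 12 and TB ZT 0 arrays of the same number from their group means correlated at 0.358, 0.38 and 0.483, and those of different numbers between −0.313 and −0.067. Both replicate 3 arrays belonged to the smaller array set. The fit used throughout did not pair arrays, since the labels state no pairing, and the replicate block was run as an alternative. Others were the pseudocount, normalization, centring, filter, probe sets, array set, arrays in the fit, weights, variance prior, Xist and each array left out.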

Additional observations from a re-analysis of the deposited data

Results flagged for a closer look

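For Wif1 the arrays of the 2 genotypes lay in opposite orders. It had 166, 149 and 142 intensity units in TB ZT 12 livers, against 121, 125 and 86.4 in TB ZT 0 livers, and 90.1, 93.2 and 91.7 in WT ZT 12 livers, against 157, 132 and 159 in WT ZT 0 livers. All 3 TB ZT 12 arrays lay above all TB ZT 0 arrays and all 3 WT ZT 12 arrays below all WT ZT 0 arrays. The TB difference of 0.42 ± 0.13 log2 did not pass (limma adjusted p = 0.136), the WT difference of −0.61 did (adjusted p = 0.00972), and the difference of differences was 1.03 ± 0.19 log2 (SE, n = 3 per group; limma adjusted p = 0.12, which does not pass). It was 1.03 (adjusted p = 0.371) without WT ZT 12 replicate 3 and 1.12 (adjusted p = 0.0435) without TB ZT 0 replicate 2. Over the day the TB means of Wif1 were 6.97 ± 0.26, 7.23 ± 0.15, 7.37 ± 0.15, 7.39 ± 0.10, 7.43 ± 0.07 and 7.01 ± 0.18 log2 in time order from ZT 0 in steps of 4 h (SD, n = 3 each), and the WT means 7.36 ± 0.13, 6.95 ± 0.08, 7.09 ± 0.27, 6.75 ± 0.02, 6.74 ± 0.13 and 7.23 ± 0.15.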

How the results depend on the processing

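For TB ZT 12 against TB ZT 0, 316 genes passed. The count was 510 with the array set as a block and 693 with that block and without TB ZT 0 replicate 1 (chosen after seeing the data). It was 134 without the smaller-set arrays of TB ZT 12 and TB ZT 0, and 61 in a fit of the 6 arrays alone. The same 6 arrays gave 289 with the replicate block, and what lies behind the 61 was not tested. Leaving out single arrays gave 166 to 450, and 117 genes passed in all 6 such fits. The share of rises was 31.0%, 41.6% under quantile normalization (158 higher, 222 lower) and 23.7% under median centring (78 higher, 251 lower). With the replicate block 299 genes passed in the fit of all arrays, 290 of them among the 316. In the 6 arrays alone 289 passed with it, 212 of them among the 316. The smaller array set was replicate 3 at ZT 0 and ZT 12, replicate 1 at ZT 4 and ZT 16, and replicate 2 at ZT 8 and ZT 20. The block over all arrays therefore does not follow the array sets and is not a test of pairing. In the fit of all arrays the block ended the calls of Bhlhe40, Pck1, Baat, Hspa5 and Manf and of no other named gene, and in the 6 arrays alone it ended those of Pck1, Pgk1, Igfbp4, Insig1, Baat, Kynu, Calr, Cyp2c70 and Sult1e1. The other settings gave 219 to 380.

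For WT 338 passed, 593 with the array set as a block, 187 without the smaller-set arrays of the groups compared, 56 in the 6 arrays alone, 32 there with the replicate block, and 208 to 720 with single arrays left out (WT alternatives were chosen after seeing the data). The difference of differences gave 1 gene without the smaller-set arrays of the groups compared, Fos, at an adjusted p of 0.0478, and 0 to 2 with single arrays left out, and 0 with the replicate block.

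Of the 64 named genes past the threshold, 36 passed with each array left out, and 22 under every alternative run. Over 1407 alternative values 1176 kept the call, 231 lost it and 0 changed direction. Where a cause is not given it was not tested. Under 16 units, signal over background limits what can be seen.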

Other observations

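The fall of Tubb2a was shared by other tubulins. This family and the next 2 were chosen after their values were seen, so their counts are a description. Of 17 measured tubulin genes 4 fell and 0 rose. Tuba1c had 213, 229.7 and 224 units in TB ZT 12 livers, against 371, 475 and 516 in TB ZT 0 livers, a difference of −0.97 ± 0.16 log2 (SE, n = 3 per group; limma adjusted p = 0.00039), and −0.76 in WT. Tubb4b differed by −1.01 ± 0.19 (adjusted p = 0.00211) and by −1.01 in WT. Tubb5 differed by −0.86 ± 0.21 (adjusted p = 0.0267) and by −0.60 in WT. The median of the 17 was −0.15.

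Genes of NAD supply rose in 3 of 14 cases, with 0 falling. Nmrk1, a nicotinamide riboside kinase, had 343, 308 and 419.8 units in TB ZT 12 livers, against 85.4, 83.0 and 216 in TB ZT 0 livers, a difference of 1.48 ± 0.22 (limma adjusted p = 8.24e-05). Nampt, the rate-limiting enzyme of the salvage route, had 554, 385 and 537 units in TB ZT 12 livers, against 272, 154 and 287 in TB ZT 0 livers, and differed by 1.03 ± 0.23 (adjusted p = 0.0141). Slc25a51, which carries NAD into mitochondria, differed by 0.87 ± 0.21 (adjusted p = 0.0215). Signal peptidase and oligosaccharyltransferase subunits, which process proteins entering the endoplasmic reticulum, had 3 of 16 falling and 15 negative. Spcs2 differed by −0.89 ± 0.18 (adjusted p = 0.00455), Magt1 by −0.65 ± 0.16 (adjusted p = 0.0367) and Stt3b by −0.64 ± 0.14 (adjusted p = 0.0147).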
